A study of Rattus norvegicus with 18 samples.

Results

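Synaptotagmins are vesicle proteins with a pair of C2 domains, and the levels of 9 of their genes were followed in medullary thyroid carcinomas of rats. The genes are Syt1, Syt4, Syt5, Syt6, Syt7, Syt9, Syt11, Syt12 and Syt17, taken by their symbol in the platform annotation, with the probe set of the highest mean where a gene had several. Each of the 9 had 1 probe set, so that choice altered nothing. They are 9 of 15 synaptotagmin genes with a probe set of 1 symbol, and 9 of 14506 genes on the array, of which 11370 were bright enough to be tested. All 9 passed that filter, as did 5 of the other 6.

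Medullary thyroid carcinoma arises from the C cells of the thyroid, which store calcitonin in dense-core granules and release it when cell calcium rises. In neurons and endocrine cells, synaptotagmins sit on synaptic vesicles and secretory granules, and several of them bind calcium through their C2 domains and pass the signal to the SNARE proteins that fuse the vesicle with the plasma membrane. Other members of the family lack residues needed to bind calcium and act in trafficking or in limiting release.

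The tumours came from MENX rats of the strain given as Sprague–Dawley white eye/Wistar–Kyoto, which carry a mutation of Cdkn1b (written Cdknb1 in the genotype field), whose product p27Kip1 restrains cyclin-dependent kinases. The homozygous mutants gave 6 tumours, all at 9 months. The heterozygous mutants gave 12, of which 6 came from rats aged 18 months and 6 from rats aged 9 months. Each tumour had its own animal code, and the rats were untreated. Every animal carried at least 1 mutant allele in all its tissues, and neither wild-type rats nor normal thyroid were analysed here. Values are log2 levels from RMA, a method that combines the probes of a gene and equalises the arrays. They carry no detection call, so a low value does not show that a gene is silent, and levels of different genes are not set against each other.

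Calca, which encodes calcitonin, averaged 13.91 ± 0.09 in homozygous tumours at 9 months, 14.06 ± 0.05 in heterozygous tumours at 18 months and 13.82 ± 0.06 in heterozygous tumours at 9 months (SD, n = 6 each). The samples also held other tissue. Tg, the thyroglobulin gene of follicular cells, lay between 14.18 and 14.34 in homozygous tumours, between 11.08 and 14.34 in the 18-month tumours and between 14.30 and 14.37 in heterozygous tumours at 9 months. Over all tumours Calca averaged 13.93 and Tg 14.08, near the brightest probe set (14.46 on average), so their narrow ranges may understate differences. The mean of 11 follicular cell markers lay between 10.13 and 11.07 in homozygous tumours, between 7.28 and 10.92 in the 18-month tumours and between 11.04 and 11.14 in heterozygous tumours at 9 months. Replicates 4 and 5 of the 18-month group stood apart from the other 4 with means of 10.92 and 10.63, against 7.28 to 9.43, and homozygous replicate 3 had the lowest mean of its group. In whole-tumour RNA, fewer cells of a type and less RNA per cell cannot be told apart. Cdkn1b itself averaged 11.08 ± 0.10 in homozygous tumours and 10.78 ± 0.10 in heterozygous tumours at 9 months, a difference of 0.295 (SE 0.072, limma adjusted p = 0.266). Where its probe set lies relative to the mutation was not tested, so it does not check the genotype.

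The age comparison asked how heterozygous tumours at 18 months differ from those at 9 months. All 9 genes were higher at 18 months, by 0.40 (Syt12) to 2.23 (Syt1) on the log2 scale with a median of 1.32, which is 1.32-fold to 4.70-fold. Limma called all 9 and none of the 5 other synaptotagmins tested, so the 9 were in effect chosen by their levels in this comparison. Among all 11370 genes 44.1% were called in either direction at an adjusted p under 0.05 and 21.6% were called higher. The count of 9 restates the choice, and nothing is read from it. Differences in this comparison are therefore given as a description, with the SE of the limma fit and without a test of each gene.

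Syt1, the calcium sensor of fast synchronous transmitter release, had its lowest, median and highest log2 level at 6.72, 9.22 and 11.06 in the 18-month tumours, against 6.29, 6.59 and 8.20 in heterozygous tumours at 9 months. Of the 18-month tumours 4 were above every heterozygous tumour at 9 months, and the groups overlapped through 18-month replicates 4 and 5 at the low end and 9-month replicate 6 at the high end. The difference was 2.23 (SE 0.60), with a 95% interval from 0.98 to 3.49. The spread was the widest of the 9 genes, with an SD of 1.64 at 18 months and 0.72 at 9 months. Without 18-month replicate 2, the highest tumour, the difference was 1.83, and without replicates 4 and 5 together it was 3.12. In homozygous tumours Syt1 ran from 6.66 through a median of 6.99 to 8.45.

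The proximal promoters of the 3 genes with the largest differences, Syt1, Syt4 and Syt11, are shown to set their sequence context beside these values. The windows hold 250 bases before and 50 after 1 start site per gene, from RefSeq on GRCr8, and are written in the direction of the gene. That start site lay at the upstream end of the annotated gene for Syt4. It lay 247 bases inside that end for Syt1 and 579 inside for Syt11, whose window is wholly within the annotated gene. Other start sites were not examined. RefSeq windows were found for 5 of the 9 genes (Syt1, Syt4, Syt6, Syt9 and Syt11). Capitals mark CAGCTG, an E-box, and CGTCA, which is the CRE half-site TGACG on the other strand. The motifs were chosen after the sequences had been seen, and each was searched on both strands.
Syt1, chr7:46244164-46244463, minus strand: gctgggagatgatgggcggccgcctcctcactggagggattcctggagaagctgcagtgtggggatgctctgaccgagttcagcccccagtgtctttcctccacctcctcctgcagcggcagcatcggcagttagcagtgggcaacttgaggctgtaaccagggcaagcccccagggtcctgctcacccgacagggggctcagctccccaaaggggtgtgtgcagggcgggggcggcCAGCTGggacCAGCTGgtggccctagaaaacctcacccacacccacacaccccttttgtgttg
Syt4, chr18:23320814-23321113, minus strand: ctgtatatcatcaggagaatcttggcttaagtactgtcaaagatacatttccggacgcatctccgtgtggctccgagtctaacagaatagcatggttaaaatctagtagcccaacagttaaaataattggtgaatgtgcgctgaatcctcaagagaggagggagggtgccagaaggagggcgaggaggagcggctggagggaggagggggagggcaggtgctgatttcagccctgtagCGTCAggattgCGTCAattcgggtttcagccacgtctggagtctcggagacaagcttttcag
Syt11, chr2:176529726-176530025, minus strand: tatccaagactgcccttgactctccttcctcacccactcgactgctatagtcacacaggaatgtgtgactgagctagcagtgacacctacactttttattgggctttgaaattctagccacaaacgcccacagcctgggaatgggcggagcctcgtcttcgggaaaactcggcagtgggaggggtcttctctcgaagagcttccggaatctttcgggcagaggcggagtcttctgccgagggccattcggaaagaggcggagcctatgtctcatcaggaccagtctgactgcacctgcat
In the Syt1 window CAGCTG occurred 2 times, at 13 and 3 bases before the start site, which 1.69% of all 33469 windows match or exceed in number. At least 1 CAGCTG was in 15.1% of all windows, and among the 5 windows those of Syt1, Syt6 and Syt9 held it. TGACG occurred 2 times in the Syt4 window and in none of the other 4, while 21.2% of all windows held at least 1 and 4.96% at least 2. CAGGTG, another E-box, was in the windows of Syt4 and Syt11 (18.8% of all windows). GGGCGG, the GC box, was in all of the 5 except Syt4 (33.1% of all windows). The bases G and C made up 79.7% of the Syt9 window, 64.3% of Syt1, 59.7% of Syt6, 54.7% of Syt11 and 51.3% of Syt4. The median over all windows was 51.7%, and the shares were not matched for base content. TTCAGCACC, one side of the site of the neuronal repressor REST, was in none of the 5 and in 0.356% of all windows. A match describes these letters and is no evidence of binding.

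Syt5 and Syt9 encode calcium-binding synaptotagmins. RefSeq lists SytIX as a synonym of Syt5 and Sytv as a synonym of Syt9, so older work may use either name for the other gene. Syt5 had its lowest, median and highest level at 7.56, 9.30 and 10.26 in the 18-month tumours, against 7.07, 7.30 and 7.44 in heterozygous tumours at 9 months. The groups did not overlap, but 18-month replicates 4 and 5, at 7.56 and 7.58, were only just above the highest 9-month tumour, while the other 4 began at 9.23. The difference was 1.66 (SE 0.43), and 2.33 without those replicates. In homozygous tumours Syt5 ran from 7.31 through 7.52 to 9.50.

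Syt9 lay at 9.27, 10.49 and 10.96 (lowest, median, highest) in the 18-month tumours, against 8.76, 8.96 and 9.30 in heterozygous tumours at 9 months. All but replicate 4 of the 18-month tumours were above every heterozygous tumour at 9 months. The difference was 1.32 (SE 0.30). Homozygous tumours lay at 8.81, 9.45 and 10.82, and the highest of them exceeded 5 of the 6 tumours of 18 months.

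Syt7, a sensor of high calcium affinity that serves slow transmitter release and the exocytosis of endocrine granules, showed the tightest separation. Its lowest, median and highest level was 10.67, 11.08 and 11.19 in the 18-month tumours, against 9.70, 9.94 and 10.15 in heterozygous tumours at 9 months. The groups did not overlap, and the gap between them was wider than the SD of either, 0.19 at 18 months and 0.17 at 9 months. The difference of 1.07 (SE 0.13, 2.10-fold) had the narrowest interval of the 9 genes, 0.80 to 1.35. Homozygous tumours lay at 10.02, 10.33 and 10.89, overlapping both other groups.

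Syt6, whose product acts in the acrosome reaction of sperm in the mouse and which belongs to the synaptotagmins that dimerise through cysteines near the N terminus, had levels of 8.24, 8.64 and 9.02 in the 18-month tumours, against 7.86, 7.94 and 8.18 in heterozygous tumours at 9 months. The groups did not overlap, although 18-month replicate 1 was only just above the highest 9-month tumour. The difference was 0.66 (SE 0.19). Homozygous tumours spanned both groups, at 7.39, 8.09 and 8.94.

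**Figure D1:**
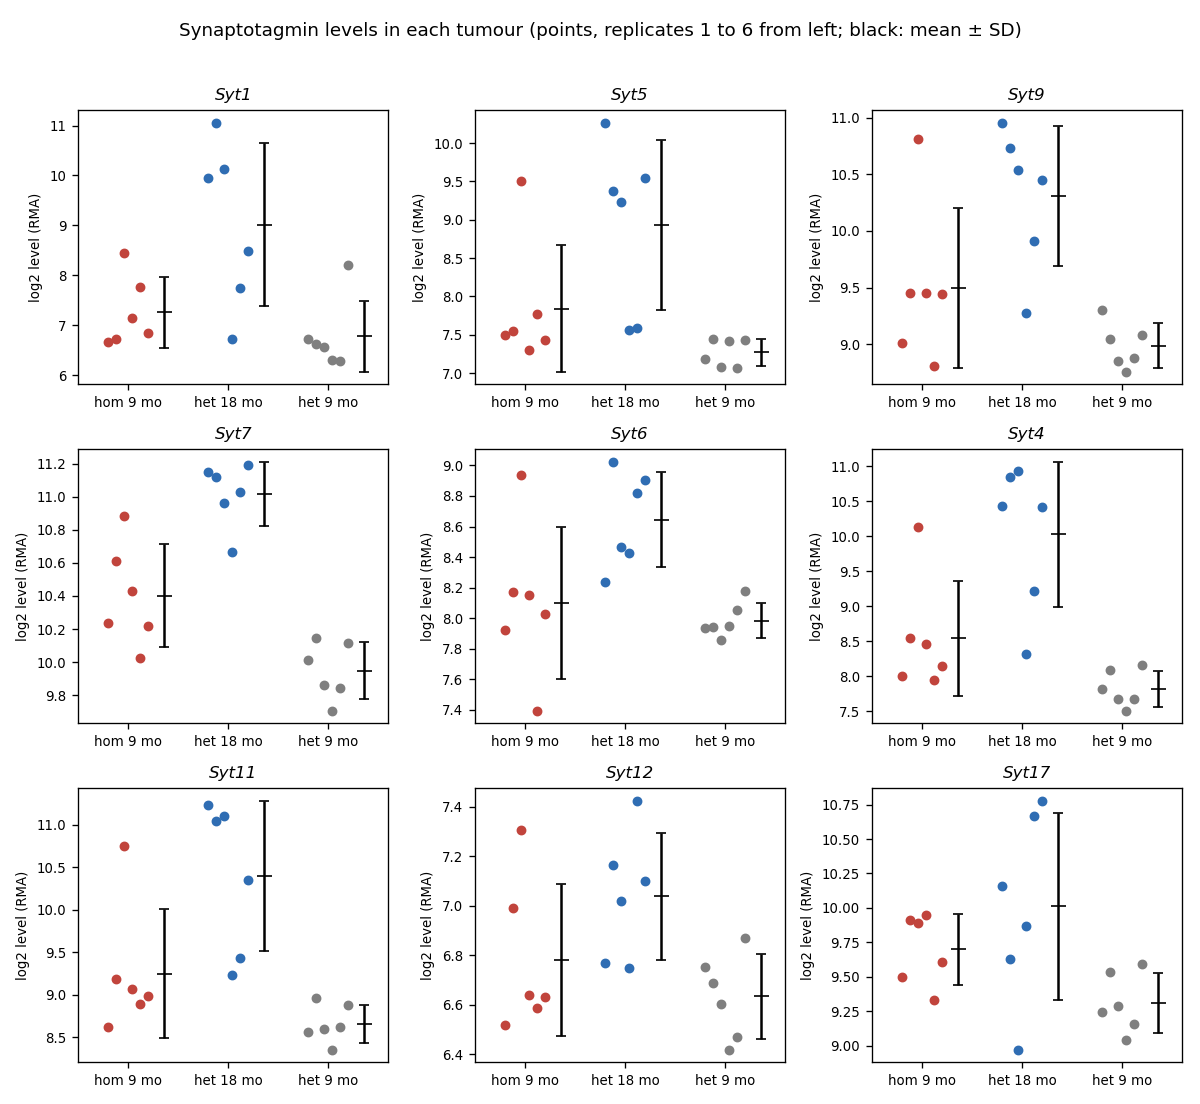
Log2 level of each of the 9 synaptotagmins (vertical axis, own scale in each panel) in the 6 homozygous tumours at 9 months (hom 9 mo), the 6 heterozygous tumours at 18 months (het 18 mo) and the 6 at 9 months (het 9 mo). Each point is 1 tumour, replicates 1 to 6 run from left to right within a group, and black marks show the mean and SD. Homozygous replicate 3 is the highest of its group in 8 panels, and 18-month replicate 4 the lowest of its group in 7.

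Syt4 and Syt11 form a pair whose first C2 domain carries a substitution at a calcium-binding position, and neither is held to be a classical calcium sensor. Syt4 had levels of 8.32, 10.42 and 10.94 in the 18-month tumours (lowest, median, highest), against 7.51, 7.75 and 8.17 in heterozygous tumours at 9 months. Every 18-month tumour was above every heterozygous tumour at 9 months, and replicates 4 and 5 were the lowest of the 18-month group. The difference was 2.21 (SE 0.42, 4.61-fold), and 2.84 without those replicates. Syt11 had levels of 9.23, 10.70 and 11.23 in the 18-month tumours, against 8.35, 8.61 and 8.96 in heterozygous tumours at 9 months. These groups did not overlap either, and the difference was 1.74 (SE 0.37). In homozygous tumours Syt4 lay at 7.95, 8.31 and 10.13 and Syt11 at 8.62, 9.03 and 10.74, and the next highest tumours were at 8.55 and 9.18.

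Syt12, also called Srg1, is not held to bind calcium, and Syt17, also called B/K, lacks the transmembrane segment typical of the family. Syt12 had levels of 6.75, 7.06 and 7.42 in the 18-month tumours, against 6.42, 6.65 and 6.87 in heterozygous tumours at 9 months. Its difference was the smallest, 0.40 (SE 0.14), and 4 of the 6 tumours of 18 months were above every heterozygous tumour at 9 months. Syt17 had levels of 8.97, 10.01 and 10.78 in the 18-month tumours, against 9.04, 9.27 and 9.59 in heterozygous tumours at 9 months. Of the 18-month tumours 5 were above every heterozygous tumour at 9 months and 1, replicate 3, was below all of them. Its difference was 0.70 (SE 0.24). These 2 genes lay nearest the threshold that parts the 9 from the others, and fell short of it without single tumours: Syt12 without 9-month replicate 4 or 5 or 18-month replicate 2 or 5 (0.33 to 0.38), and Syt17 without 9-month replicate 4 or 18-month replicate 5 or 6 (0.55 to 0.65). In homozygous tumours Syt12 lay at 6.52, 6.64 and 7.31 and Syt17 at 9.33, 9.75 and 9.95.

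In 5 of the 9 genes (Syt4, Syt5, Syt6, Syt7 and Syt11) the tumours of 18 months were all above the heterozygous tumours of 9 months, an arrangement found in 9.07% of all genes tested. The 9 were in effect chosen by this comparison, so nothing is read from that count. Among the other synaptotagmins the next in size was Syt13, which is thought not to bind calcium, with a mean of 9.00 ± 0.20 at 18 months and 8.79 ± 0.17 at 9 months (SD, n = 6 each). Its difference of 0.21 (interval 0.0048 to 0.41, limma adjusted p = 0.0896) is the largest rise outside the 9, as that of Syt12 is the smallest inside. By adjusted p Syt8, which was lower at 18 months, lay nearer the threshold. Syt3 and Syt2, both calcium-binding, differed by 0.13 (-0.03 to 0.28) and 0.04 (-0.25 to 0.32). Syt8 and Syt15 were on the other side of 0, at -0.20 (-0.40 to -0.0072, limma adjusted p = 0.0858) and -0.18 (-0.36 to 0.0068). Syt10, at 6.28 ± 0.21 in homozygous tumours, 6.22 ± 0.14 at 18 months and 6.21 ± 0.07 in heterozygous tumours at 9 months, was under the filter and not tested.

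**Figure D2:**
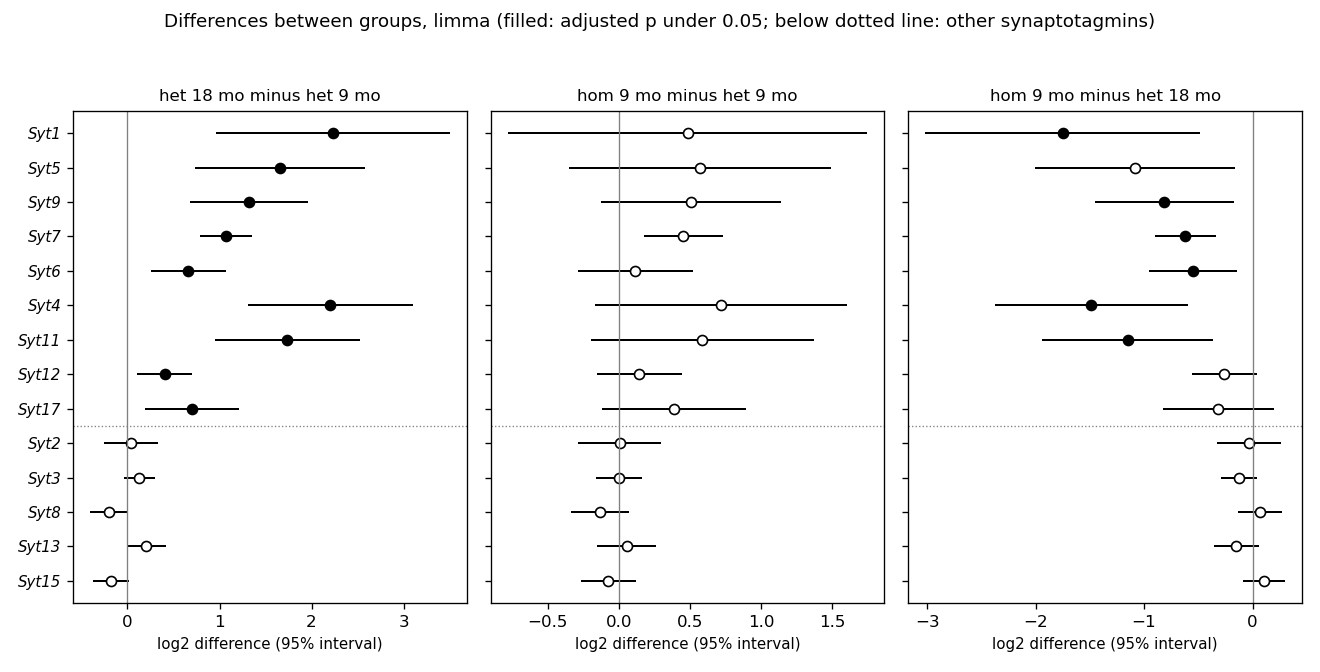
Log2 differences (points) with 95% intervals from limma for the 9 synaptotagmins and, under the dotted line, the 5 others tested, in the 3 comparisons. Filled points had an adjusted p under 0.05. The 9 genes run from 0.40 to 2.23 in the age comparison (left), where they were chosen, so their filled points there restate the choice. No point is filled between genotypes at 9 months (middle).

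The second comparison set homozygous against heterozygous tumours at the same age of 9 months. It shares the heterozygous 9-month tumours with the age comparison, so genes chosen for low levels in that group tend to lie above 0 here as well. Limma called 0 of the 9 genes and 0% of all 11370 genes, 995 of which had an unadjusted p under 0.05. All 9 differences were above 0, from 0.12 (Syt6) to 0.72 (Syt4), with a median of 0.48, beside a median of 0.0022 over all genes tested, of which 50.7% lay above 0. In no gene of the 9 did the groups stand apart without overlap, which 1.57% of all genes did in either direction. Syt7 had the smallest p of the 9: the level was 10.02, 10.33 and 10.89 (lowest, median, highest) in homozygous tumours, against 9.70, 9.94 and 10.15 in heterozygous tumours. In that gene 5 of the 6 homozygous tumours were above every heterozygous one, and the difference was 0.45 (SE 0.13, interval 0.18 to 0.73, unadjusted p = 0.0026, limma adjusted p = 0.355). Syt4 differed by 0.72 (SE 0.42), Syt11 by 0.59 (SE 0.37) and Syt5 by 0.57 (SE 0.43), and the groups overlapped in all 3. Intervals of the other 5 (Syt1, Syt6, Syt9, Syt12 and Syt17) also held 0, the widest being that of Syt1, from -0.77 to 1.74.

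Homozygous replicate 3 carried much of these differences. It was the highest homozygous tumour in all of the 9 genes except Syt17, where replicate 4 was highest, and it was above every heterozygous 9-month tumour in all 9. It also had the highest C cell marker mean of its group, 11.71 against 10.76 to 11.03 in the other 5, and the lowest follicular mean, 10.13 against 10.84 to 11.07. With the follicular mean as a covariate in the fit on all tumours, Syt1 differed by 0.24, Syt5 by 0.35, Syt9 by 0.38, Syt11 by 0.41, Syt7 by 0.42 and Syt4 by 0.55. Syt6, Syt12 and Syt17 did not shrink, at 0.12, 0.15 and 0.40, beside 0.12, 0.15 and 0.39 without the covariate. The C cell mean was not fitted. Without replicate 3, Syt1 differed by 0.25, Syt4 by 0.40, Syt5 by 0.24, Syt9 by 0.25, Syt11 by 0.29 and Syt12 by 0.04, each more than 1.5 times smaller, and Syt6 by -0.05. Syt7 kept 0.36 and Syt17 0.35. Without heterozygous replicate 6, the highest of its group for Syt1, that gene differed by 0.77, and without homozygous replicate 5 Syt6 differed by 0.26.

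The third comparison set the homozygous tumours at 9 months against the heterozygous tumours at 18 months, both of which already appear above, so that its values are the difference of the other 2 and add no separate evidence. Genes chosen for high levels in the 18-month tumours tend to lie below 0 here, and the values are given as a description. All 9 genes lay below 0, from -0.26 (Syt12) to -1.75 (Syt1), with a median of -0.81, beside 0 over all genes tested, of which 50% lay above 0. Limma called 6 of the 9 lower in homozygous tumours (Syt1, Syt4, Syt6, Syt7, Syt9 and Syt11), while 29.8% of all genes were called in either direction and 13.6% lower, and nothing is read from that count. Syt7 averaged 10.40 ± 0.31 in homozygous tumours and 11.02 ± 0.19 in the 18-month tumours (SD, n = 6 each), a difference of -0.62 (SE 0.13). Syt4 averaged 8.54 ± 0.81 in homozygous tumours and 10.03 ± 1.04 in the 18-month tumours, a difference of -1.49 (SE 0.42). Homozygous tumours overlapped the 18-month tumours in all 9 genes, while 2.25% of all genes showed no overlap in either direction. Calls of Syt1, Syt6, Syt9 and Syt11 ended in some of the fits without 1 tumour, and the count then ran from 2 to 8. In those fits 2116 to 4702 of all 11370 genes were called in either direction. Syt5 differed by -1.08 with all tumours, by -1.42 without homozygous replicate 3 and by -1.36 and -1.35 without 18-month replicates 4 and 5 in turn. Syt12 differed by -0.26 with all tumours and by -0.36 without homozygous replicate 3. Syt17 differed by -0.31 with all tumours, and by -0.52, -0.18 and -0.16 without 18-month replicates 3, 5 and 6 in turn.

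**Figure D3:**
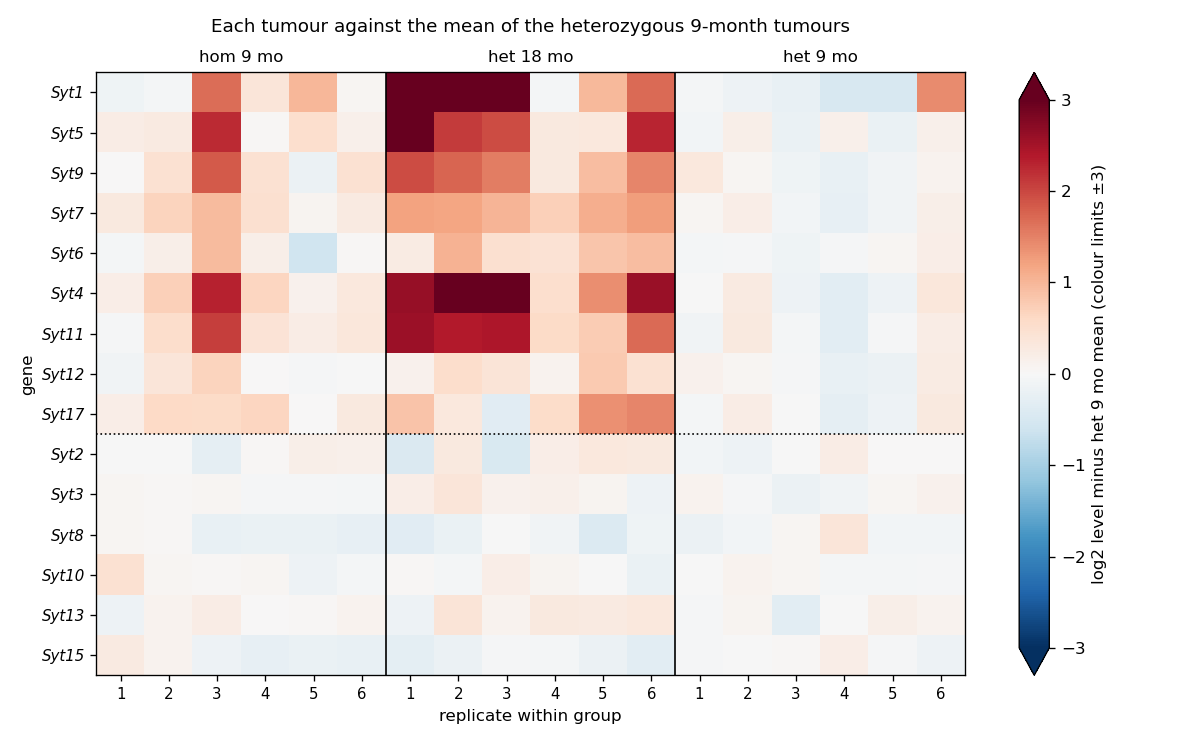
Log2 level of every measured synaptotagmin (rows, the 9 genes above the dotted line and the 6 others under it) in each of the 18 tumours (columns by group and replicate), minus the mean of the heterozygous 9-month tumours. Red is above that mean and blue below it, and colours stop at 3. Homozygous replicate 3 stands out red in the upper rows, and 18-month replicates 4 and 5 are paler than the other 4 in Syt1, Syt4, Syt5, Syt9 and Syt11.

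The 6 tumours of 18 months did not fall in 1 order for all genes. Replicate 4 was the lowest of them in 7 of the 9 genes, while replicate 1 was lowest in Syt6 and replicate 3 in Syt17. Replicates 2 and 6 were above every heterozygous 9-month tumour in all 9 genes, replicates 1, 3 and 5 in 8 and replicate 4 in 6. For Syt11 the order of the tumours was the exact reverse of their follicular marker means: in 15 of 15 pairs of tumours the one with the lower follicular mean had more Syt11. The same held in 14 of 15 pairs for Syt9, 13 for Syt4, 12 for Syt1 and Syt5 and 10 for Syt7, but in 7 for Syt6 and 6 for Syt12 and Syt17. Among homozygous tumours the same order held in 9 (Syt5) to 13 (Syt9, Syt11 and Syt12) of 15 pairs, with 12 for Syt6 and 11 for Syt17. Among heterozygous tumours at 9 months, whose follicular means spanned only 11.04 to 11.14, it held in 4 to 8. The tumour with the higher C cell marker mean had more of the gene in 8 (Syt5) to 15 (Syt4 and Syt6) of 15 homozygous pairs. That C cell order held in 6 (Syt12) to 14 (Syt5) pairs at 18 months. In heterozygous tumours at 9 months it held in 7 (Syt6) to 14 (Syt7 and Syt17).

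**Figure D4:**
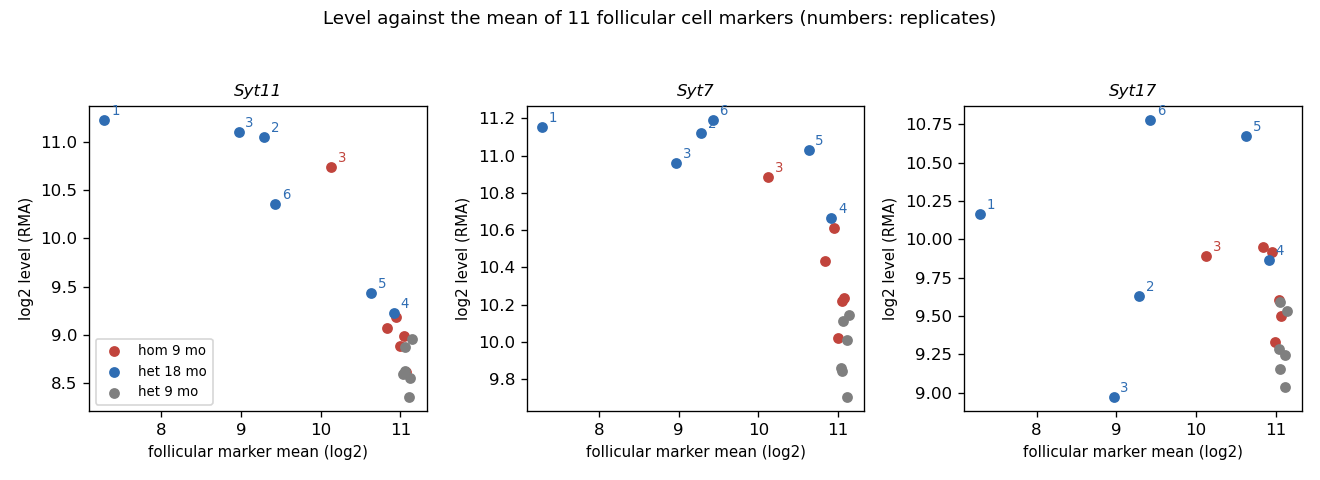
Log2 level of Syt11, Syt7 and Syt17 (vertical axes, chosen after their values were seen) against the mean log2 level of 11 follicular cell markers (horizontal axes) in the 18 tumours. Numbers are replicates of the 18-month group and homozygous replicate 3. Syt11 falls from left to right through the 18-month tumours, whereas Syt7 stays at or above 10.67 in all 6 and Syt17 has its lowest value, 8.97, at a low follicular mean.

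Lists of markers of other cell types differed in how many genes were called between the age groups. Over all genes tested 21.6% were called higher at 18 months and 22.4% lower. Of 10 follicular markers tested 9 were called lower at 18 months and none higher, of 11 endothelial markers 11 were called lower, and of 7 adipocyte markers 7. Skeletal muscle had 1 of 9 called lower, fibroblasts 1 of 7 higher and 3 lower, and macrophages 2 of 7 higher and 1 lower. Of 14 C cell and neuroendocrine markers 10 were called higher and 1 lower, and the mean of the 15 measured lay between 11.02 and 11.98 at 18 months, against 10.40 and 10.91 in heterozygous tumours at 9 months. Nerve expresses synaptotagmins too, and the mean of 8 Schwann cell and nerve markers lay between 7.64 and 8.14 at 18 months, against 7.39 and 7.88, with 1 of 7 tested called higher. The mean of 4 parathyroid markers lay between 8.23 and 12.40 at 18 months, against 9.34 and 12.37. Of these 4 markers 1 was called higher and 2 lower, with a median difference of -2.20 on the log2 scale. With the follicular mean as a covariate in the fit, Syt6 differed by age by 0.67 (SE 0.26) and Syt12 by 0.43 (SE 0.19). Syt17 differed by 0.80 (SE 0.33) and Syt7 by 0.85 (SE 0.16). Without it the differences were 0.66, 0.40, 0.70 and 1.07, with SEs of 0.19, 0.14, 0.24 and 0.13. Every 18-month tumour had a lower follicular mean than every heterozygous tumour at 9 months, so the covariate cannot be fully parted from age. Syt5 came to 0.18, Syt9 to 0.46, Syt11 to 0.56, Syt1 to 0.62 and Syt4 to 1.05, each less than 0.5 of its size without the covariate. In that fit 201 of the 11370 genes were called in all. With the parathyroid mean as a covariate the 9 differences ran from 0.27 (Syt12) to 1.67 (Syt1 and Syt4). Beyond these 2 fits, the part of other cell types in the age differences was not tested.

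How the genes varied together within groups was not used to choose them. Deviations from the group means over the 18 tumours had the highest Pearson correlation in Syt4 with Syt11 (0.95), followed by Syt4 with Syt9 (0.92), Syt9 with Syt11 (0.92) and Syt5 with Syt11 (0.91). Syt17 stood apart from these, with -0.05 to Syt4, -0.14 to Syt11 and -0.28 to Syt1. Syt7 lay between, with 0.83 to Syt9 and 0.48 to Syt17, and Syt6 correlated best with Syt12 (0.76). These are descriptions over the same arrays, which share their mixture of tissues. Without homozygous replicate 3 the value for Syt4 and Syt11 was 0.93, and for Syt4 and Syt12 it was 0.27 instead of 0.52. In the 11 other tumours of 9 months Syt17 correlated with Syt4 at 0.97, but over the 6 tumours of 18 months at -0.34.

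The genes most like each of the 9 over the 18 tumours, by the same correlation of deviations, were named as the first 3 among all genes tested. For Syt11 they were Cacng7 (0.98), Kif3c (0.98), a kinesin motor, and Gria2 (0.98), a subunit of AMPA glutamate receptors. For Syt4 they were Susd4, Dnajc6 and Gpr19 (0.98 each), where Dnajc6 encodes auxilin, which strips clathrin from vesicles. Syt9 was most like Camk1d, Actl6b and Tmem229b (0.98 each), Syt5 most like Rgs9 (0.97), Dpcd (0.96) and Serp2 (0.96), and Syt7 most like Cabp7 (0.95), Epha8 (0.95) and Ncald (0.95), which encodes the calcium-binding protein neurocalcin delta. Syt1 was most like Cit (0.92), Cdh2 (0.91), the gene of N-cadherin, and Ift56 (0.91). Values were lower for Syt6, with Vps37b (0.89), Upb1 (0.88) and Hs3st6 (0.85), and for Syt12, with Ankib1 (0.88), Cep41 (0.86) and Aldh5a1 (0.85). Syt17 was most like Kcnd2 (0.94), a potassium channel gene, Crtac1 (0.93) and Spock3 (0.91). None of those 3 was called by age, with differences of 0.50, 0.19 and 0.14 and limma adjusted p of 0.216, 0.764 and 0.799, while all 24 genes named for the other 8 except Dpcd (0.21) were called higher. Over all genes tested 21.6% were called higher, and nothing is read from these counts.

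Among genes of the machinery around synaptotagmins, of 26 SNARE genes and regulators tested 11 were called higher and 6 lower at 18 months, with a median of 0.10. Over all genes 21.6% were called higher and 22.4% lower, with a median of -0.0045, so the share called lower is near the background. Snap25, the SNARE that synaptotagmins contact at the plasma membrane, averaged 12.51 ± 0.46 at 18 months and 11.16 ± 0.31 at 9 months in heterozygous tumours (SD, n = 6 each), a difference of 1.35 (SE 0.23, limma adjusted p = 0.00058). Cadps, which primes dense-core vesicles, was higher by 1.51 (SE 0.24) and Unc13a, a priming factor of synaptic vesicles, by 1.29 (SE 0.21), both with a limma adjusted p of 0.00043. The 3 genes called lower with the smallest p were Vamp7, Vamp8 and Stxbp3. Vamp8 was lower by 0.68 on the log2 scale, at 8.75 ± 0.49 at 18 months and 9.43 ± 0.06 at 9 months, Stxbp3 was at 9.66 ± 0.15 and 10.08 ± 0.07, and Vamp7 at 10.46 ± 0.05 and 10.76 ± 0.05.

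Vesicle membrane proteins and partners of synaptotagmins had 13 of 23 genes called higher and 5 lower, with a median of 0.82. Over all genes 21.6% were called higher and 22.4% lower, so the share called lower is again near the background. This list and the others were chosen with earlier results of these data known, and nothing is read from their counts. Syp, which encodes synaptophysin, averaged 11.23 ± 0.77 at 18 months and 9.35 ± 0.33 at 9 months, a difference of 1.89 (SE 0.33, limma adjusted p = 0.00059). Rab3a, a GTPase of regulated secretion, was higher by 1.01 (SE 0.18) and Scamp5 by 0.82 (SE 0.12). Sv2b, a member of the SV2 family that binds synaptotagmin, was lower, at 6.51 ± 0.36 at 18 months and 7.63 ± 0.18 at 9 months, a difference of -1.11 (SE 0.14, limma adjusted p = 0.00020). Rab27b (-0.78, SE 0.12) and Sypl1 (-0.82, SE 0.14) were lower as well. Of 9 genes of granule cargo and processing 8 were called higher and none lower, with a median of 1.18: Pcsk1n by 1.49 (SE 0.18), Chgb, the chromogranin B gene, by 1.18 (SE 0.18) and Pcsk2, a prohormone convertase, by 0.86 (SE 0.13).

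Other C2-domain proteins of vesicle traffic, listed with Rph3al, a relative without C2 domains, had 5 of 17 genes called higher and 4 lower. Both shares are near the 21.6% and 22.4% over all genes. The median difference was -0.09. Rph3al, the gene of the Rab effector Noc2, averaged 10.80 ± 0.30 at 18 months and 9.72 ± 0.17 at 9 months (difference 1.08, SE 0.16, limma adjusted p = 0.00028). Rims2 was higher by 0.67 (SE 0.16) and Rims3 by 0.48 (SE 0.10). The synaptotagmin-like genes Sytl4, whose product granuphilin docks granules, and Sytl5 were lower, at 7.50 ± 0.82 and 7.27 ± 0.74 at 18 months, against 9.06 ± 0.45 and 8.58 ± 0.09 at 9 months, differences of -1.55 (SE 0.32) and -1.30 (SE 0.26). Esyt1, an extended synaptotagmin of membrane contact sites, was at 10.74 ± 0.13 and 10.97 ± 0.09, a difference of -0.23 (SE 0.07). Between genotypes at 9 months none of the genes of these 4 lists was called.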

How the data were processed

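RNA of 18 tumours was measured on Affymetrix arrays. Total RNA was amplified and biotin-labelled with NuGEN kits, per the labels' protocols. The deposited values are on the log2 scale. The submitters' processing notes name RMA and version 1.3.0.187 of Affymetrix Expression Console, with neither order nor role. Array medians lay between 7.55 and 7.65. Precision is limited by how many arrays there were.

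Of 29214 probe sets, 15310 had 1 gene symbol in the platform annotation, 323 several and 13581 none, and 15279 gene IDs matched RefSeq (GRCr8). This gave 14506 genes, 527 with more than 1 probe set, for which the probe set of highest mean level was taken. Genes at or above the 30th percentile of probe-set means (6.32), 11370 in all, were fitted in limma (version 3.58.1, R 4.3.3; lmFit, then eBayes) as a means model of the 3 groups over 18 arrays. A call is a Benjamini-Hochberg adjusted p under 0.05 over all genes tested, two-sided, and SEs, 95% intervals and adjusted p-values are those of limma. The fit was also run on simulated data in which genes varied independently, unlike genes in tumours that share a mixture of tissues. That run therefore does not show how many calls are false here.

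The members, gene lists and tests were chosen with earlier results of these data known. Named were all 9 genes, the other synaptotagmins, up to 3 called genes in each direction from each list by smallest p, and the 3 genes most like each member. Some lists share genes (Chgb and Pcsk2 are in the C cell list too). Alternatives were other filters, normalizations and variance settings, a replicate block, marker means as covariates and leaving out arrays. A variance per group, and leaving out homozygous replicate 3 with 18-month replicates 4 and 5, were added after the data had been seen.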

Additional observations from a re-analysis of the deposited data

Results flagged for a closer look

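A tumour was listed when its gap to the nearest other tumour of its group of 6 exceeded Dixon's critical share of the range (0.625). Chance gives about 1 in 20 groups, and 45 groups were checked, 27 of them for the 9 genes. Homozygous replicate 3 was listed in 4 genes: Syt4 at 10.1 (next highest 8.55), Syt5 at 9.50 (next 7.77), Syt9 at 10.8 (next 9.46) and Syt11 at 10.7 (next 9.18). All 4 values come from the same tumour. Its follicular marker mean, 10.13, was the lowest of the homozygous tumours and its C cell mean, 11.71, the highest.

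Heterozygous 9-month replicate 6 was listed for Syt1 at 8.20, with the next tumour at 6.72. That tumour was also the highest of its group in Syt4, Syt6, Syt12 and Syt17, by smaller gaps. Homozygous replicate 1 was listed for Syt10 at 6.67 (next 6.27), a gene under the filter.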

How the results depend on the processing

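All 9 genes kept a difference above 0 in the age comparison under every alternative run, and the count called was 8 or 9 except with a marker mean as covariate, where it was 1 (follicular, Syt7) or 4 (parathyroid), and without 1 array, where it ran from 7 to 9. Of all 11370 genes, 5009 were called in the main fit, 201 with the follicular covariate and 2613 with the parathyroid covariate. Without 1 array, 4290 to 5740 were called. A filter at the 50th percentile left Syt12 untested. Syt17 fell short with only the compared groups in the fit (0.70) or without 18-month replicates 4 and 5 (0.57). Since the genes were in effect chosen by this comparison, these counts show how near the threshold they lay and test nothing. Between genotypes at 9 months the count was 0 throughout, beside 0 to 118 of all genes tested. Syt6 came to -0.052 without homozygous replicate 3, with or without 18-month replicates 4 and 5, and to 0.26 without homozygous replicate 5. For homozygous tumours at 9 months against heterozygous tumours at 18 months, the 6 genes called became 1 with only those groups in the fit (Syt7), 0 with the follicular covariate, 1 with the parathyroid covariate, 3 with a variance per group (Syt4, Syt7 and Syt11, added after the data had been seen) and 2 to 8 without 1 array. Calls over all 11370 genes went from 3392 to 708, 0, 690 and 2566 in the same order, and to 2116 to 4702 without 1 array. Syt5 turned to 0.17 under the follicular covariate, at an adjusted p of 0.841. Causes were not tested.

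The labels number replicates 1 to 6 in each group without saying that a number marks a shared litter or day. Same-numbered tumours had deviations from the group means that correlated between -0.29 and 0.35 over genes, so the numbers were not taken to pair the samples. With the replicate block, 9 genes were called in the age comparison, 0 between genotypes and 5 in the third comparison, where Syt6 was lost. Of all 11370 genes, 4866, 0 and 3433 were called in turn.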
